A study of Homo sapiens with 11 samples.

Results

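PPARGC1A, PPARGC1B, ESRRA, PPARA, NRF1, GABPA, TFAM, TFB1M, TFB2M and POLRMT encode the PGC-1 coactivators, the transcription factors they work with, and the proteins that transcribe mitochondrial DNA. These 10 genes were taken by name from a count table of 58721 genes, with earlier results of these data known, and all 10 were among the 23693 genes with enough counts to be tested. They were followed through 11 poly(A) RNA libraries of A375, an established human melanoma cell line with an activating BRAF mutation and, per the labels, a wild-type genotype. The parental group held 1 library of untreated cells. The persister group held 5 libraries of cells that had lived through 8 weeks in 2 nM trametinib, an inhibitor of the MEK kinases downstream of BRAF. The withdrawn group held 5 libraries taken after 4 weeks without the drug, and each was named for the persister culture with its number.

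PGC-1 coactivators do not bind DNA. They dock on nuclear receptors such as ERRα (ESRRA) and PPARα (PPARA) and on the nuclear respiratory factors NRF1 and GABP, and through them raise transcription of genes of oxidative phosphorylation and fatty acid oxidation. NRF1 and GABP in turn act on the genes of TFAM, TFB1M, TFB2M and POLRMT, whose proteins enter mitochondria, where TFAM packs the mitochondrial genome and, with TFB2M and the polymerase POLRMT, starts its transcription. In melanoma, PPARGC1A is known as a target of the lineage factor MITF, and BRAF and MEK inhibitors are known to raise it in lines that express MITF.

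Total counts per library ran from 56513920 to 82984566. Levels are given as CPM, counts scaled to a common library size by the TMM method, and group values as mean ± SD (n = 5). Of 13 markers of melanoma cells 12 were tested, and they moved in both directions: persister cells had 6 calls above the parental level and 4 below it. SOX10 stood at 635 CPM in parental, 29.2 to 86.6 in persister and 792 to 838 in withdrawn libraries, and CSPG4 at 544, 49.8 to 185 and 558 to 640 CPM. DCT, a pigment enzyme, stood at 2.94 CPM in parental, 229 to 740 in persister and 16.4 to 64.1 in withdrawn libraries, and SOX9 at 0.138, 112 to 161 and 0.385 to 5.16 CPM, while TYR was at most 0.0851 CPM in any library. DUSP6, a phosphatase switched on by ERK signalling, stood at 168 CPM in parental, 24.8 ± 4.78 in persister and 186 ± 9.28 in withdrawn libraries. The labels do not say if the cultures were derived independently. P-values therefore cover the variation among these libraries alone, part of which may be technical. With 1 parental library, every comparison with that group assumes that it varies like the others.

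The members did not move as 1 block. In persister against parental cells, 1 member rose (PPARGC1A) and 5 fell (PPARGC1B, TFAM, TFB1M, TFB2M and GABPA), so 6 of 10 were called at an adjusted p under 0.05 by edgeR's quasi-likelihood test, where 31.2% of all genes tested were called. Calls in the upward direction covered 16.1% of all genes and calls in the downward direction 15.1%. In a fit of only the parental and persister libraries 3 members were called (PPARGC1A, TFB1M and GABPA), against 11.3% of all genes. The median log2 fold change of the members was -0.53, against 0.09 over all genes. In withdrawn against persister cells, 4 members rose (PPARGC1B, TFB1M, GABPA and PPARA) and 2 fell (PPARGC1A and ESRRA), which is 6 of 10 against 52.5% of all genes (24.5% higher and 28.0% lower). The members' median was 0.30, against -0.03 over all genes, and their share of calls was near that of all genes. Bulk RNA cannot tell fewer cells of a type from less RNA per cell.

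**Figure D1:**
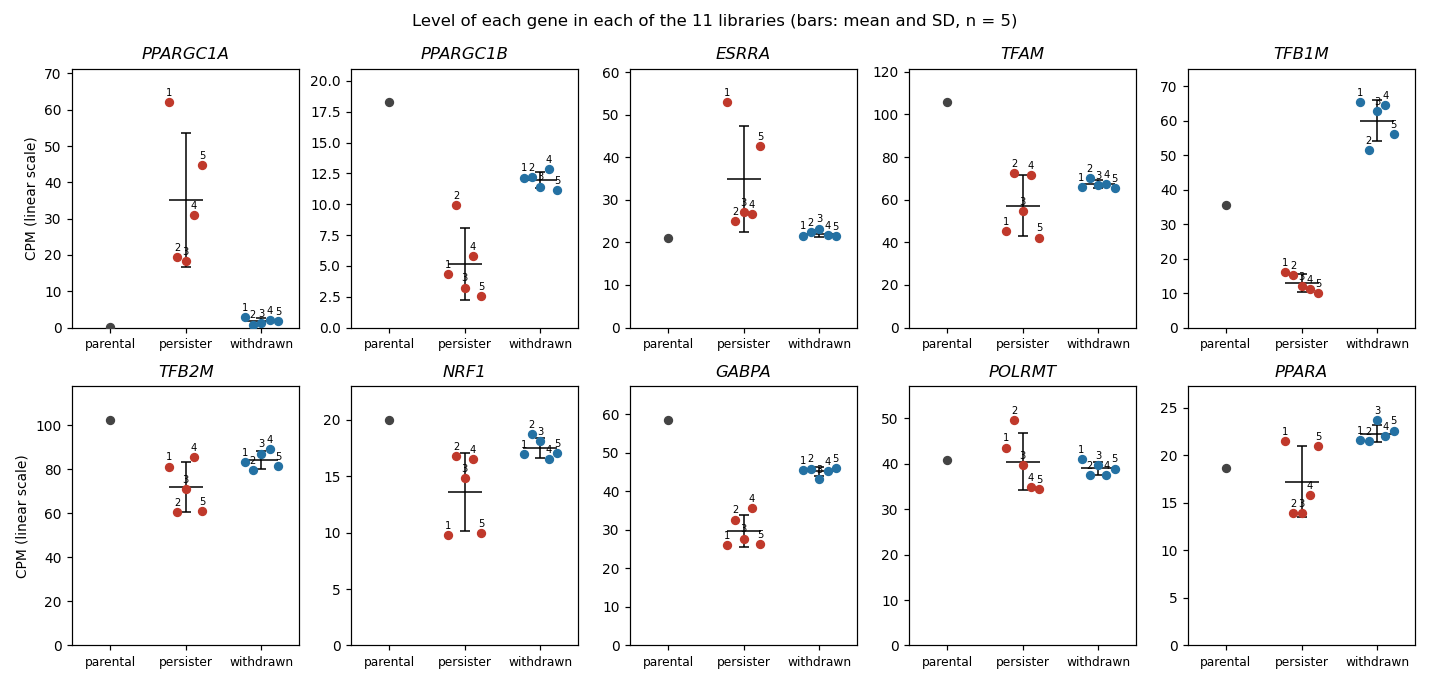
Level of each member in CPM (linear vertical axes that start at 0) in the parental, persister and withdrawn libraries, with points numbered by culture and bars for the mean and SD (n = 5). PPARGC1A was 18.2 to 62.04 CPM in persister libraries and at most 2.93 CPM in the others, TFB1M was lowest in persister and highest in withdrawn libraries, and POLRMT stayed at 34.4 to 49.6 CPM throughout.

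PPARGC1A encodes PGC-1α, the coactivator known from energy-demanding tissues, and lies at chr4:23755041-23904089 on the minus strand (GRCh38, here and below). It was near silent in parental cells, with 18 counts or 0.275 CPM (95% Poisson interval 0.163 to 0.435 CPM, which covers counting error only). The persister libraries 1 to 5 held 62.04, 19.4, 18.2, 30.95 and 44.8 CPM, and the withdrawn libraries 1 to 5 held 2.93, 0.841, 1.28, 1.97 and 1.68 CPM. All persister libraries were thus far above both other groups, and cultures 1 and 5 stood highest among them. PPARGC1A rose 127-fold in persister against parental cells (log2 fold change 6.98 ± 1.12 (SE), adjusted p = 0.00114) and fell 20.1-fold after withdrawal (log2 fold change -4.33 ± 0.44, adjusted p = 1.63e-05, lower in 5 of 5 cultures). Without cultures 1 and 5 the rise was 82.8-fold and the fall 13.1-fold.

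Withdrawal left PPARGC1A above the parental value in 5 of 5 libraries, since its lowest withdrawn library held 0.841 CPM. That 6.297-fold difference missed the threshold in the fit of all libraries (adjusted p = 0.216) and passed it with DESeq2 (adjusted p = 0.0120) and in a fit of only the parental and withdrawn libraries (adjusted p = 0.0342). The parental arm of the comparison rests on 18 counts.

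Markers of tissues in which PPARGC1A is abundant were at or near 0. Of 10 markers of muscle, fat and liver, 2 had enough counts to be tested, 1 was called higher in persister cells, and their summed level was 0.979 CPM in parental, 1.77 to 8.50 in persister and 1.77 to 3.11 in withdrawn libraries. TTR made up most of it, LEP had 0 counts in 11 of 11 libraries, and ALB and ADIPOQ in 9. Fibroblast markers did move: 7 of 11 were called higher and 1 lower in persister cells, with a summed level of 22.9 CPM in parental, 189 to 3388 in persister and 42.6 to 68.0 in withdrawn libraries. POSTN alone reached 3203 CPM, in culture 4. LUM stood at 2.16 CPM in parental, 32.7 to 292 in persister and 2.37 to 5.56 in withdrawn libraries, and COL1A1 at 1.30, 0.998 to 6.11 and 0.784 to 1.75 CPM. The part of these markers in the members' changes was not tested.

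PPARGC1B, the gene of the related coactivator PGC-1β (chr5:149730298-149855022, plus strand), moved in the other direction. Parental cells held 18.3 CPM, the persister libraries 4.32, 9.94, 3.24, 5.78 and 2.58 CPM, and the withdrawn libraries 12.2, 12.2, 11.4, 12.8 and 11.2 CPM. Every persister library lay below every withdrawn library and below the parental one, and culture 2 stood highest among them. PPARGC1B fell 3.54-fold in persister cells (log2 fold change -1.82 ± 0.46, adjusted p = 0.0118) and rose 2.32-fold after withdrawal (log2 fold change 1.21 ± 0.31, adjusted p = 0.00602, higher in 5 of 5 cultures). In a fit of only the parental and persister libraries the fall missed the threshold (adjusted p = 0.0907).

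The opposite moves exchanged the order of the coactivators. Per kilobase of exon, the ratio of PPARGC1A to PPARGC1B was 0.0179 in the parental library, 17.0, 2.32, 6.66, 6.35 and 20.6 in persister libraries 1 to 5, and 0.286, 0.0818, 0.132, 0.182 and 0.178 in withdrawn libraries 1 to 5. PPARGC1A was the more abundant of the pair per length in every persister library and the less abundant in every other library. PPRC1, the gene of the third family member PRC, stood at 105 CPM in parental, 71.9 ± 20.3 in persister and 74.5 ± 2.21 in withdrawn cells and was not called in any comparison. MITF, named above as an activator of PPARGC1A, held 78.4 CPM in parental and 102.2 ± 12.9 in persister cells (adjusted p = 0.219). It reached 138 ± 24.2 CPM after withdrawal (adjusted p = 0.0134). The part of MITF in the changes of PPARGC1A was not tested.

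The sequence before one of the RefSeq starts of PPARGC1A is shown because PPARGC1A is the member with the largest change and MITF recognises E-boxes such as CATGTG. The stretch lies on the minus strand of GRCh38 at chr4:23881213-23881242, 141 to 112 bases upstream of the start at base 23881101. It falls within exons of other PPARGC1A transcripts, and capitals mark the E-box. Whether MITF acts on this stretch was not tested.
PPARGC1A: gtgaatctgatcCATGTGtaaggaaaacag

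CATGTG, searched on both strands, occurred in 11.1% of all 35116 RefSeq promoter windows of 300 bases (250 before to 50 after a start). Among the members it occurred in windows of PPARGC1A and ESRRA. The related E-box CACGTG was found in 7.26% of all windows and, among the members, in the window of the distal PPARGC1A start, 123 bases upstream of it. The letters TGACGTCA, the full cAMP response element, and TCAAGGTCA, an ERR element, were in 1.85% and 0.353% of all windows. They were in none of the 11 windows of the 9 members that had one. For PPARGC1A these windows lie at base 24472905, outside the gene's span of 23755041 to 23904089, and at base 23881101, inside it. Sequence before the gene's annotated upstream end at base 23904089 was not searched. The absence therefore holds for the windows searched, not for other PPARGC1A promoters. A match is a description of letters, not a site in use.

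The nuclear receptors differed from each other. ESRRA encodes ERRα, an orphan receptor that is a main partner of PGC-1α (chr11:64305572-64316743, plus strand). It stood at 20.97 CPM in parental cells, at 52.9, 24.9, 27.1, 26.7 and 42.6 CPM in the persister libraries and at 21.6, 22.5, 23.3, 21.6 and 21.4 CPM in the withdrawn libraries. All persister libraries lay above all others, but cultures 2, 3 and 4 only slightly, and cultures 1 and 5 carried most of the mean. The 1.66-fold difference between persister and parental cells was not called (log2 fold change 0.73 ± 0.36, adjusted p = 0.138), whereas ESRRA fell 1.58-fold after withdrawal (log2 fold change -0.66 ± 0.20, adjusted p = 0.0142, lower in 5 of 5 cultures). Without cultures 1 and 5 the difference from parental cells was smaller and passed the threshold (log2 fold change 0.33, adjusted p = 0.0395).

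ESRRA shares 284 exon bases with TRMT112 on the opposite strand. TRMT112 held 208 CPM in parental, 209 ± 21.6 in persister and 231 ± 18.5 in withdrawn cells and was called in none of the comparisons. The related receptor gene ESRRG rose 4.15-fold from 1.04 to 4.32 ± 2.34 CPM in persister cells (adjusted p = 0.0412) and fell 4.54-fold after withdrawal (adjusted p = 3.27e-04). ESRRB averaged 0.145 ± 0.101 CPM in persister cells and was not called.

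PPARA, a fatty acid receptor that switches on fatty acid oxidation (chr22:46150521-46243756, plus strand), stood at 18.7 CPM in parental cells. The persister libraries held 21.5, 13.9, 13.9, 15.8 and 20.98 CPM and the withdrawn libraries 21.6, 21.5, 23.7, 22.04 and 22.6 CPM. Persister cultures 1 and 5 came close to the level of withdrawn cells, while cultures 2, 3 and 4 lay below the parental value. PPARA was not called between persister and parental cells (log2 fold change -0.12 ± 0.23, adjusted p = 0.724) and rose 1.29-fold after withdrawal (log2 fold change 0.37 ± 0.14, adjusted p = 0.0364, higher in 5 of 5 cultures). The call after withdrawal ended with upper-quartile scaling (adjusted p = 0.0759), without persister culture 2, 3 or 4 (0.0664, 0.0851 and 0.0672) and without any 1 of the withdrawn libraries (0.0529 to 0.0729). PPARD and PPARG, the sister receptors, averaged 21.2 ± 4.495 and 47.9 ± 16.7 CPM in persister cells and were not called in any comparison.

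Of the nuclear respiratory factors, GABPA fell in persister cells and NRF1 was not called. GABPA encodes the DNA-binding subunit of GABP (chr21:25734570-25772460, plus strand). It held 58.5 CPM in parental cells, 26.1, 32.7, 27.8, 35.6 and 26.4 CPM in the persister libraries and 45.5, 45.9, 43.3, 45.3 and 46.02 CPM in the withdrawn libraries. The groups did not overlap, and cultures 1 and 5 were the lowest persister libraries. GABPA fell 1.97-fold in persister cells (log2 fold change -0.98 ± 0.15, adjusted p = 8.58e-04) and rose 1.52-fold after withdrawal (log2 fold change 0.61 ± 0.10, adjusted p = 2.73e-04).

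GABPA shares 413 exon bases with ATP5PF on the opposite strand, and a processed pseudogene, GABPAP, held 2385 counts over all libraries against 29112 for GABPA. ATP5PF, an ATP synthase subunit, stood at 86.96 CPM in parental and 123 ± 24.3 in persister cells (adjusted p = 0.109) and fell to 86.4 ± 6.51 after withdrawal (adjusted p = 0.00482). GABPB2, a partner subunit that brings the activation domain, rose 2.37-fold from 10.1 to 23.96 ± 2.303 CPM in persister cells (adjusted p = 9.02e-04) and fell 2.08-fold after withdrawal (adjusted p = 8.81e-06).

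NRF1, nuclear respiratory factor 1 (chr7:129611714-129757082, plus strand), stood at 19.96 CPM in parental cells. The persister libraries held 9.75, 16.8, 14.9, 16.5 and 9.98 CPM and the withdrawn libraries 16.99, 18.8, 18.2, 16.5 and 17.1 CPM. Cultures 1 and 5 were well below the rest, culture 2 lay inside the withdrawn range and culture 4 just below it. Neither the difference from parental cells (log2 fold change -0.56 ± 0.27, adjusted p = 0.133) nor that after withdrawal (log2 fold change 0.37 ± 0.16, adjusted p = 0.07596) passed the threshold, though NRF1 was higher after withdrawal in 5 of 5 cultures. The second passed it without persister culture 2 (adjusted p = 0.0320) and with library totals as the only scaling (0.0496).

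Promoters of the mitochondrial transcription genes are shown because these genes are known targets of NRF1 and GABP and moved unequally here. Capitals mark the NRF1 core GCATGCGC and the GABP (ETS) core CCGGAAG as read on either strand; in GCGCATGCGC the NRF1 core lies on both strands with an overlap. The stretches, from RefSeq on GRCh38.p14 and written along the gene's own strand, are TFB1M chr6:155314494-155314734 (minus, 250 to 10 bases upstream), TFB2M chr1:246566262-246566291 (minus), POLRMT chr19:633651-633680 and chr19:633542-633571 (minus, the distal and proximal sites), ESRRA chr11:64305484-64305513 (plus) and GABPA chr21:25734895-25734924 (plus). Those of TFB2M, proximal POLRMT and GABPA lie in exons of GENCODE 29 transcripts.
TFB1M: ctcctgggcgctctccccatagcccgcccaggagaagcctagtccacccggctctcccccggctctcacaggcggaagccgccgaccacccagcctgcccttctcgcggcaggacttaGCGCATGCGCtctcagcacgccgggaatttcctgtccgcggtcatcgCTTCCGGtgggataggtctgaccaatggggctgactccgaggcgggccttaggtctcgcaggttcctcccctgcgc
TFB2M: aaggctccgctgttcGCATGCGCaggctct
POLRMT distal: agcgtccaccgGCGCATGCcttcgcgcctc
POLRMT proximal: ggcggcgcggGCGCATGCGCaggcgcgggc
ESRRA: ccccctgctttGCATGCGCacggccggccc
GABPA: cctccgctctaCTTCCGGccctggctccgc

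The NRF1 core was in 3.05% of all windows and in 5 of the 11 member windows, those of ESRRA, TFB1M, TFB2M, POLRMT and a start of PPARA. The GABP core was in 10.3% of all windows and in 4 of the members' (TFB1M, GABPA, POLRMT and another start of PPARA). TFB1M and POLRMT each held both cores in 1 window. Of these genes TFB1M was called in both comparisons with persister cells and POLRMT in neither. Whether the cores have a part in the members' changes was not tested. The windows of TFAM and PPARGC1B held none of the motifs searched. That absence holds for exact letters in those windows only.

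The genes of mitochondrial transcription moved apart from each other. TFB1M encodes a methyltransferase that modifies the small ribosomal RNA of mitochondria (chr6:155257509-155314493, minus strand). It stood at 35.6 CPM in parental cells, at 16.2, 15.3, 12.01, 11.1 and 9.93 CPM in the persister libraries and at 65.4, 51.5, 62.8, 64.7 and 56.1 CPM in the withdrawn libraries. The 3 groups did not overlap: every persister library was below the parental one, and every withdrawn library was above it. TFB1M fell 2.76-fold in persister cells (log2 fold change -1.46 ± 0.22, adjusted p = 5.46e-04) and rose 4.66-fold after withdrawal (log2 fold change 2.22 ± 0.14, adjusted p = 3.74e-07). Its level after withdrawal was 1.69-fold above the parental library, which was not called in the fit of all libraries (adjusted p = 0.187) but was in the fit of only those groups (0.00195) and without persister cultures 1 and 5 (0.0301).

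TIAM2, which shares 215 exon bases with TFB1M on the opposite strand, moved the same way. It went from 12.9 CPM in parental to 7.99 ± 0.8103 in persister (adjusted p = 0.0171, and 0.124 in the fit of only those groups) and 17.2 ± 2.12 in withdrawn cells (adjusted p = 1.36e-05). The strand setting of the counting is not given in the sources used here, and how far the pair share reads was not tested.

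TFB2M, the transcription initiation factor related to TFB1M (chr1:246540560-246566324, minus strand), stood at 102.4 CPM in parental cells. The persister libraries held 81.3, 60.8, 70.98, 85.6 and 60.9 CPM and the withdrawn libraries 83.4, 79.9, 87.2, 89.4 and 81.7 CPM. All were below the parental value, and the persister and withdrawn ranges overlapped. TFB2M fell 1.42-fold in persister cells (log2 fold change -0.51 ± 0.18, adjusted p = 0.0449), a call that ended without a low-count filter (0.0730), in the fit of only those groups (0.185), without persister culture 3 (0.0678) and without any 1 of the withdrawn libraries (0.0611 to 0.0672). The difference after withdrawal (log2 fold change 0.23 ± 0.11, adjusted p = 0.0862, higher in 5 of 5 cultures) was called only without persister culture 1 (0.0495) or 4 (0.0304) and with library totals as the only scaling (0.0372). Per kilobase of exon, TFB2M was 4.26 times as abundant as TFB1M in the parental library, 5.88 to 11.4 times in persister libraries and 1.89 to 2.296 times in withdrawn libraries.

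TFAM, which binds and packs mitochondrial DNA and bends its promoters (chr10:58385022-58399221, plus strand), held 106 CPM in parental cells. The persister libraries held 45.3, 72.6, 54.6, 71.4 and 42.2 CPM and the withdrawn libraries 65.99, 70.2, 67.01, 67.1 and 65.5 CPM. Persister cultures 2 and 4 lay above the withdrawn range and cultures 1, 3 and 5 below it, and all 10 libraries were below the parental one. TFAM fell 1.85-fold in persister cells (log2 fold change -0.88 ± 0.24, adjusted p = 0.0152, and 0.111 in the fit of only those groups) and was not called after withdrawal (log2 fold change 0.23 ± 0.15, adjusted p = 0.203). Against the parental library, withdrawn cells stayed 1.57-fold lower, a difference that missed the threshold in the fit of all libraries (adjusted p = 0.224) and passed it in the fit of only those groups (1.74e-05) and without persister cultures 1 and 5 (0.0158).

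POLRMT, the mitochondrial RNA polymerase (chr19:617224-633604, minus strand), stood at 40.8 CPM in parental cells. The persister libraries held 43.6, 49.6, 39.7, 34.9 and 34.4 CPM and the withdrawn libraries 41.00, 37.5, 39.7, 37.6 and 38.9 CPM. The parental value lay inside both ranges, and POLRMT was the only member for which that was so. Its log2 fold changes were -0.01 ± 0.18 in persister against parental (adjusted p = 0.963) and -0.05 ± 0.10 in withdrawn against persister cells (adjusted p = 0.684), and the sign of the first turned without persister culture 4 or 5 and that of the second without culture 2.

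**Figure D2:**
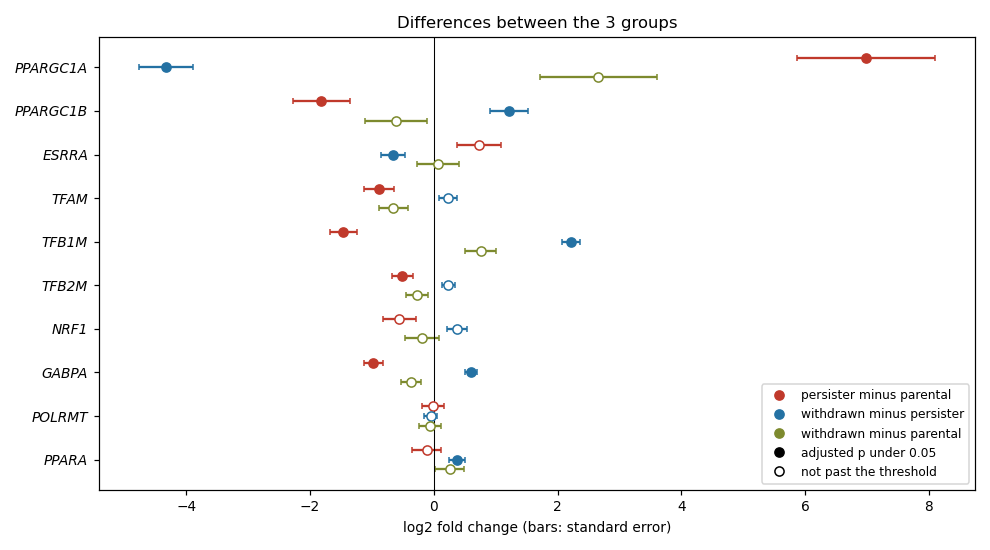
Log2 fold change of each member in the 3 comparisons, with the standard error as bars, and filled points for an adjusted p under 0.05. PPARGC1A spans from -4.33 to 6.98 while POLRMT stays at 0 within its error, and none of the differences between withdrawn and parental cells is filled.

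The comparison of withdrawn with parental cells asked how far the members had gone back. None of the 10 members was called in the fit of all libraries by edgeR's quasi-likelihood test, and 4 had an unadjusted p under 0.05 (PPARGC1A, TFAM, TFB1M and GABPA), where 0.431% of all genes tested were called. With DESeq2 1 member was called (6.07% of all genes) and without persister cultures 1 and 5 it was 2 (9.04%). With only the parental and withdrawn libraries, so that the wide spread of the persister cultures no longer entered, it was 6 (30.5%): PPARGC1A and TFB1M higher, and PPARGC1B, TFAM, TFB2M and GABPA lower. In that fit the adjusted p was 7.52e-04 for PPARGC1B, 0.00533 for TFB2M and 8.94e-04 for GABPA. The parental library lay outside the withdrawn range for 9 members, against 63.8% of all genes, and outside the persister range for 8, against 63.6%. Persister and withdrawn libraries did not overlap for 6 of 10 members, against 40.6% of all genes; for PPARA among them the ranges met at 21.5 CPM.

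The order of the members by level per length shifted between the groups. Per kilobase of exon, TFB2M was the most abundant in all 3, at 55.4 CPM per kb in parental cells and at means of 38.9 in persister and 45.6 in withdrawn cells. In parental cells TFAM (18.8), TFB1M (12.99), GABPA (10.8), POLRMT (7.97), ESRRA (6.92) and NRF1 (4.84) followed, and PPARGC1A was last at 0.0253. In persister cells ESRRA came next at 11.5, ahead of TFAM (10.2), POLRMT (7.89), GABPA (5.47), TFB1M (4.72), NRF1 (3.29) and PPARGC1A (3.23), and PPARGC1B was last at 0.401. Among these the ranges of ESRRA and TFAM overlapped, as did those of TFAM and POLRMT, GABPA and TFB1M, TFB1M and NRF1, and NRF1 and PPARGC1A. By culture, ESRRA lay above TFAM in 1 and 5 only (17.5 and 14.1 against 8.07 and 7.53). In cultures 2, 3 and 4 it lay below TFAM (8.22, 8.95 and 8.83 against 12.9, 9.74 and 12.7). In withdrawn cells TFB1M was second at 21.96, followed by TFAM (11.98), GABPA (8.33), POLRMT (7.60) and ESRRA (7.29), of which GABPA and POLRMT, and POLRMT and ESRRA, overlapped.

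The 5 persister cultures were not alike. PPARGC1A averaged 35.1 ± 18.5 CPM in persister and, at its lower level, spread about as widely in proportion in withdrawn libraries (1.74 ± 0.792 CPM): the highest library held 3.41 times the lowest in persister and 3.49 times in withdrawn cells. ESRRA averaged 34.9 ± 12.3 CPM in persister against 22.1 ± 0.777 CPM in withdrawn libraries. Cultures 1 and 5 held the highest PPARGC1A, ESRRA and PPARA of the 5 and the lowest TFAM, NRF1 and GABPA. They did not stand together for TFB1M (16.2 and 9.93 CPM), TFB2M (81.3 and 60.9), POLRMT (43.6 and 34.4) or PPARGC1B (4.32 and 2.58). Culture 3 lay between them for each of these genes. The same cultures had the lowest S phase gene level: the mean log2 CPM of 22 genes of DNA replication was 6.66 in parental cells, 5.27, 6.54, 6.08, 6.11 and 4.23 in persister cultures 1 to 5, and 6.29 to 6.42 in withdrawn libraries. Of these 22 genes 2 were called lower in persister cells, where 15.1% of all genes were. After withdrawal 5 were called higher, where 24.5% were, so that neither count lay above its background. By direction alone, all 22 were lower in persister than in parental cells (median log2 fold change -0.75, against 0.09 over all genes). By the same measure 20 were higher after withdrawal (median 0.50, against -0.03). Without cultures 1 and 5 the number called lower was 7. In that fit 38.9% of all genes were called in either direction, which is no background for a count in 1 direction. With only the parental and persister libraries, the number called lower by edgeR's quasi-likelihood test was 0 (2 at an unadjusted p under 0.05). Cultures 1 and 5 also had the largest share of counts from the mitochondrial genome, which was 2.96% in parental cells, 8.88%, 4.51%, 6.72%, 4.64% and 9.28% in persister cultures 1 to 5 and 3.15% to 3.70% in withdrawn libraries. The part of cell division in the members' differences was not tested. Cultures 1 and 5 held extreme values of these same members, and for PPARA they were the only persister cultures above the parental value. Calls gained without them, here and for ESRRA, TFAM and TFB1M above, are therefore no separate support. Without cultures 1 and 5, PPARGC1A, PPARGC1B, TFAM, TFB1M, TFB2M and GABPA kept their calls and directions in persister against parental cells, with log2 fold changes of 6.37, -1.53, -0.67, -1.47, -0.49 and -0.86, and 2 more members were then called, so that 8 of 10 passed where 38.9% of all genes did: ESRRA higher (0.33, adjusted p = 0.0395) and PPARA lower (-0.36, adjusted p = 0.0414).

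**Figure D3:**
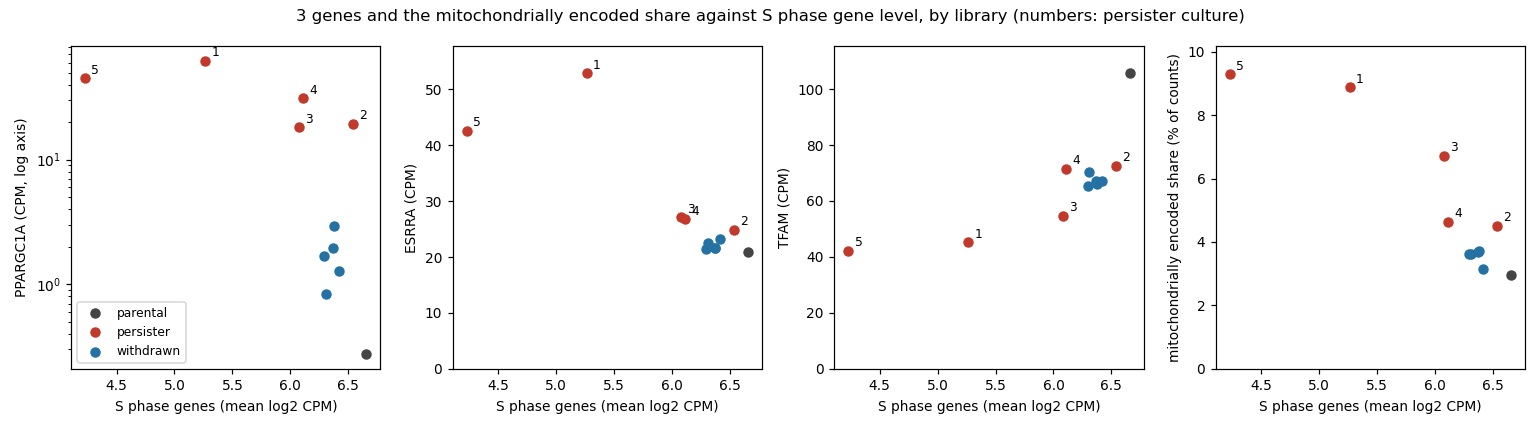
PPARGC1A (log axis), ESRRA, TFAM (CPM) and the mitochondrially encoded share of counts (%) against the mean log2 CPM of 22 S phase genes, 1 point a library, with persister cultures numbered. Cultures 5 and 1, at 4.23 and 5.27 on the horizontal axis, lie to the left of all other libraries in each panel.

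Genes that regulate the coactivators moved in both directions, with counts to be read against the same shares of all genes (31.2% called in persister and 52.5% in withdrawn cells). Of 50 genes other than the members that the naming rule picked and that were called between persister and parental cells, 50 kept their call and direction with DESeq2 and without cultures 1 and 5, and 21 in the fit of only the parental and persister libraries. Among those that ended in that last fit were the calls of ESRRG, KAT2A, PRKAA1, FASTKD3, COX6C, COX4I1, COX6A1, MT-CO2, ACOT1, FABP3, TOMM20, MFN1, FIS1 and MIEF2, with adjusted p from 0.0545 for COX6C to 0.238 for TOMM20. Of 38 genes of the coactivator network (partners, modifying enzymes and repressors), 6 rose and 10 fell in persister cells (median log2 fold change -0.08), 1 and 4 in the fit of only the parental and persister libraries (11.3% of all genes called), and 12 rose and 8 fell after withdrawal (median 0.06). NRIP1, a corepressor of nuclear receptors that opposes PGC-1α, fell 2.54-fold to a mean of 64.6 ± 8.29 CPM, with 164 CPM in parental cells (adjusted p = 8.27e-05) and rose 2.18-fold after withdrawal (adjusted p = 2.73e-06). KAT2A, whose product acetylates PGC-1α, rose 1.61-fold in persister cells (adjusted p = 0.002197), and SIRT1, whose product removes the acetyl groups, went down 2.29-fold, from 38.4 CPM to a mean of 16.8 ± 3.85 (adjusted p = 0.00238). PRKAA1, a catalytic subunit of the AMPK kinase that phosphorylates PGC-1α, fell 1.78-fold (adjusted p = 0.00974), and MEF2A, an activator of PPARGC1A transcription in muscle, fell 1.99-fold (adjusted p = 4.26e-04). All 4 of these moved back after withdrawal: KAT2A fell 1.96-fold, and SIRT1, PRKAA1 and MEF2A rose 1.79-fold, 1.72-fold and 1.77-fold.

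Genes of mitochondrial DNA upkeep and RNA processing had members in both directions too. Over all genes, 16.1% were called higher and 15.1% lower in persister cells, and 24.5% and 28.0% after withdrawal. In the fit of only the parental and persister libraries 11.3% were called in either direction. Of 24 genes of mitochondrial DNA maintenance, 3 rose and 6 fell in persister cells (median log2 fold change -0.21), 2 and 1 in the fit of only the parental and persister libraries, and 7 rose and 4 fell after withdrawal (0.15). TK2, the mitochondrial thymidine kinase, rose 3.86-fold from 14.8 to 57.02 ± 16.3 CPM (adjusted p = 0.00159) and RRM2B, a ribonucleotide reductase subunit used outside S phase, rose 1.65-fold (adjusted p = 0.00111). SLC25A36, a carrier of pyrimidine nucleotides, fell 2.94-fold (adjusted p = 1.89e-04), while the polymerase POLG and the helicase TWNK were not called, with 34.9 and 84.6 CPM in parental and 32.00 ± 7.77 and 69.96 ± 13.2 in persister cells. Of 21 genes of mitochondrial RNA processing, 3 rose and 2 fell (median -0.03), 1 and 0 in that same fit, and 3 rose and 7 fell after withdrawal (-0.07). FASTK, founder of a family of mitochondrial RNA-binding proteins, rose 3.75-fold in persister cells (adjusted p = 7.13e-04), and the family member FASTKD3 fell 1.98-fold (adjusted p = 0.00496).

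ESRRA lay above the parental value and NRF1 below it in all persister libraries. Neither was called against parental cells in the fit of all libraries. Their part in the changes of their targets was not tested. Genes known as targets of ERRα and NRF1 included many that rose in persister cells. Of 34 genes listed as such targets, 16 rose and 0 fell (median log2 fold change 0.58), and 2 rose and 20 fell after withdrawal (-0.35). Among all genes 16.1% were called higher and 15.1% lower in persister cells, and 24.5% and 28.0% after withdrawal. In a fit of only the parental and persister libraries, where 11.3% of all genes were called, 0 of the 34 passed by edgeR's quasi-likelihood test and 15 were higher at an unadjusted p under 0.05. With DESeq2 19 rose and 0 fell (36.7% of all genes called in either direction). Without cultures 1 and 5 it was 22 and 0 (38.9% called in either direction). COX6C, COX4I1 and COX6A1, subunits of cytochrome c oxidase, rose 2.43-fold, 2.24-fold and 2.21-fold (adjusted p = 0.00445, 0.00485 and 0.00604). Cytochrome c (CYCS), a classical NRF1 target, was not called in persister cells, at 242 ± 45.5 against 193 CPM, and fell 1.56-fold after withdrawal (adjusted p = 9.85e-04). The mitochondrially encoded genes went the same way, with 7 of 13 higher and 0 lower in persister cells (median 1.10), and 0 higher and 11 lower after withdrawal (-0.85), and with 1 called in the fit of only the parental and persister libraries. MT-CO2 and MT-ND1 rose 3.78-fold and 3.08-fold (adjusted p = 0.00858 and 0.00304), with counts that are uncertain as far as nuclear copies share reads.

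Fatty acid oxidation, which PPARα and ERRα are known to control, also had more genes that rose than fell in persister cells. The shares over all genes were 16.1% higher and 15.1% lower there, and 24.5% and 28.0% after withdrawal. With only the parental and persister libraries 11.3% were called in either direction. Of 24 genes 11 rose and 1 fell in persister cells (median log2 fold change 0.46), 3 and 1 in the fit of only the parental and persister libraries, and 2 rose and 11 fell after withdrawal (-0.19). DECR1, an enzyme for unsaturated fatty acids, rose 5.13-fold from 23.7 to 122 ± 41.2 CPM (adjusted p = 0.00111), SLC25A20, the carnitine carrier of the inner membrane, 2.35-fold (adjusted p = 3.36e-04) and ECHS1, a hydratase of the cycle, 1.91-fold (adjusted p = 0.00221). CPT1C, a carnitine palmitoyltransferase relative found in the endoplasmic reticulum, was the gene that fell, from 1.897 to 0.123 ± 0.0527 CPM (adjusted p = 5.88e-04). CPT1A, the enzyme that admits fatty acids to mitochondria, was not called, at 89.1 CPM in parental, 75.7 ± 7.44 in persister and 70.4 ± 4.87 in withdrawn cells.

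Of 17 PPARα targets 14 were tested: 4 rose and 2 fell in persister cells, 1 and 0 in the fit of only the parental and persister libraries, and 3 rose and 4 fell after withdrawal. Shares of all genes called in either direction were 31.2%, 11.3% and 52.5% in the same order. ACOT1, an acyl-CoA thioesterase, rose 2.03-fold (adjusted p = 0.009503), whereas FABP3, a fatty acid binding protein, fell 3.05-fold (adjusted p = 0.0176). VNN1, a pantetheinase, had 0 counts in the parental library and averaged 0.689 ± 0.381 CPM in persister and 0.0154 ± 0.0257 in withdrawn libraries. TXNIP, an inhibitor of glucose uptake, rose 6.32-fold in persister cells (adjusted p = 9.00e-04) and a further 1.81-fold after withdrawal (adjusted p = 0.00365), and at 304 ± 50.6 CPM it was the 1 gene of the pathway lists called between withdrawn and parental cells (adjusted p = 0.0107).

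Genes of protein import and of the dynamics of mitochondria had calls in both directions. For all genes the called shares were 16.1% higher and 15.1% lower in persister cells, and 24.5% and 28.0% after withdrawal. The share in either direction was 11.3% in the fit of only the parental and persister libraries. Of 26 import genes tested 3 rose and 1 fell in persister cells (median log2 fold change 0.12), 1 and 0 in the fit of only the parental and persister libraries, and 2 rose and 13 fell after withdrawal (-0.32). TOMM7, a small part of the outer membrane import pore, rose 2.72-fold (adjusted p = 0.00146) and TOMM20, its receptor, fell 1.297-fold (adjusted p = 0.0439). Of 17 genes of fusion, fission and mitophagy, 3 rose and 3 fell in persister cells (-0.05), 0 and 1 in that same fit, and 7 rose and 4 fell after withdrawal (0.09). DNM1L, the fission GTPase, and MFN1, a fusion GTPase, fell 1.904-fold and 1.75-fold (adjusted p = 2.08e-04 and 0.00341), while FIS1 and MIEF2, outer membrane proteins of the fission machinery, rose 1.77-fold and 2.95-fold (adjusted p = 0.0163 and 0.0165).

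**Figure D4:**
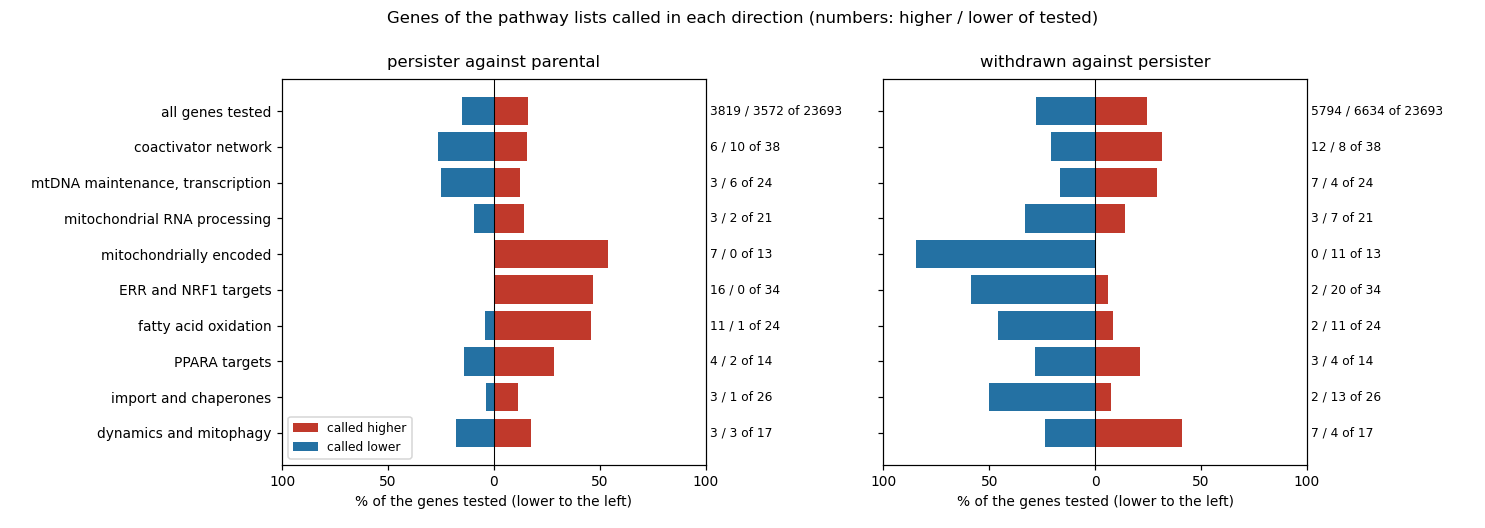
Share of the tested genes of each list called higher (right) or lower (left) in persister against parental and in withdrawn against persister cells, in %, beside all 23693 genes tested. Targets of ERRα and NRF1 and the mitochondrially encoded genes have no gene called lower in persister cells, where the coactivator network has 6 higher and 10 lower.

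The genes whose pattern lay closest to PPARGC1A over the 11 libraries, by root mean square difference of centred log2 CPM, were XKR3 (0.487), WISP2 (0.531), KCNE4 (0.595), SLC38A11 (0.672) and NUPR1 (0.678). Their parental counts were 1 for XKR3 and SLC38A11, 5 for WISP2, 28 for NUPR1 and 35 for KCNE4. These genes were thus near silent in parental cells, where low counts make the distances uncertain. NUPR1, a stress-induced nuclear protein and the most abundant of these, stood at 0.428 CPM in parental, 94.96 ± 34.96 in persister and 3.24 ± 1.37 in withdrawn cells. For TFAM they were CAMSAP1 (0.0528), NFATC3 (0.0818), LEMD3 (0.0820), ZNF551 (0.0829) and E2F3 (0.0870), and E2F3, a transcription factor of the cell cycle, stood at 61.1 CPM in parental, 29.7 ± 6.75 in persister and 37.3 ± 2.03 in withdrawn cells. TFAM itself varied less over the libraries than PPARGC1A.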

How the data were processed

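Read counts per gene were deposited by the authors as 1 table of whole numbers, not normalized, with 1 column for each of the 11 libraries. Per the labels' protocols, RNA was purified on columns and poly(A) libraries were made with a stranded kit. The submitters' processing notes name bcl2fastq, HISAT2, HTSeq and hg38. Their versions, the strand setting and the annotation were not given in the sources used here. All 58721 gene IDs matched GENCODE 29, which gave symbols, exon lengths and GRCh38 positions, and 18024 genes had 0 counts throughout. Promoter sequences were taken from RefSeq (GRCh38.p14), with 11 windows for 9 members.

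The tests used edgeR 4.0.16 (R 4.3.3), with filterByExpr at a minimum count of 10 and total of 15, TMM scaling, and a robust quasi-likelihood fit of the 3 groups in 1 model. Benjamini-Hochberg adjustment ran over the 23693 genes tested (threshold 0.05, 8 residual degrees of freedom). The standard errors printed with log2 fold changes were each the absolute change divided by the square root of the test's F statistic. The fit was tried on simulated counts. Alternatives were RLE, upper-quartile and no scaling, other filters, DESeq2 1.42.0, limma-voom (limma 3.58.1), fits of 2 groups, libraries left out and a replicate block.

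The members and lists were chosen with earlier results of these data known. Named beside the 10 members were 15 key genes, up to 3 genes of each pathway list with the smallest adjusted p in each of the first 2 comparisons, and the 5 genes nearest to PPARGC1A and to TFAM. Some genes so named are not reported here. The overlapping neighbours TIAM2, ATP5PF and TRMT112 were added for their shared exons.

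The titles tie each withdrawn sample to 1 persister culture, so equal numbers form pairs. Deviations of same-numbered libraries from their group means correlated at 0.0484 to 0.0909 across genes, and each persister library correlated best with its own number (5 of 5).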

Additional observations from a re-analysis of the deposited data

Results flagged for a closer look

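Groups of 5 libraries were searched for 1 library far from the rest, for the 10 members and the mitochondrially encoded share in persister and in withdrawn cells. Of 22 groups 2 held one, and chance gives about 1 in 20. GABPA stood at 43.3 CPM in withdrawn library 3, below the other withdrawn libraries, with a gap of 0.742 of the group's range. The mitochondrially encoded share of counts was 3.15% in the same library, the lowest of its group, with a gap of 0.840 of the range. None of the persister groups held such a library. Cultures 1 and 5 stood together at the same end of the range for PPARGC1A, ESRRA, PPARA, TFAM, NRF1, GABPA and the mitochondrially encoded share. They did not for PPARGC1B, TFB1M, TFB2M and POLRMT.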

How the results depend on the processing

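Of 640 alternative values for the 30 log2 fold changes of the members, 601 kept their direction and side of the threshold, 19 lost a call, 16 gained one and 4 changed sign. The sign changes were all in POLRMT, at 0.0362 without persister 4, 0.0409 without persister 5 and 0.0253 without both persister 1 and 5 against parental cells, and at 0.0294 after withdrawal without persister 2. With 1 library left out its values ran from -0.0965 to 0.0409 against parental cells and from -0.109 to 0.0294 after withdrawal. Members called in persister against parental cells numbered 3 in the fit of only those groups, 5 to 6 with 1 library left out, and 8 without persister 1 and 5. For withdrawn against persister cells the numbers with 1 library left out were 5 to 7. For withdrawn against parental cells the number was 1 with DESeq2, 6 in the fit of only those groups, 2 without persister 1 and 5, and 0 with any 1 library left out.

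The parental group of 1 library limits every comparison with it. Over all genes, 74 rose and 28 fell in withdrawn against parental cells, but 57 and 38 with upper-quartile scaling, 56 and 51 with limma-voom, 775 and 409 with DESeq2, 3483 and 3110 in the fit of only those groups, 1241 and 845 without persister 1 and 5, and 19 to 374 and 4 to 184 with 1 library left out. In persister against parental cells, 1354 rose and 1215 fell in the fit of only those groups. With the replicate block for the pairs of same-numbered cultures, no member's call changed after withdrawal. The mitochondrially encoded share differed by 3.26 percentage points between persister and withdrawn cells (exact permutation p = 0.00794) and, in the paired replicate block, by the same 3.26 (exact sign-flip p = 0.0625); these are the smallest values that 5 against 5 libraries and 5 pairs allow. With 1 library left out the difference was 2.64 to 3.83 percentage points.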
